A study of Mus musculus with 11 samples.

Results

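Microglia that had been transplanted into the mouse brain and collected 3 months later were compared with primary microglia kept in culture, across every expressed gene. The comparison takes the 4 transplanted and the 3 cultured libraries of a series of 11, chosen by their labels; the 4 libraries of resident microglia did not enter the fit. All libraries are labelled Cx3cr1-GFP, a line in which a green fluorescent reporter sits in the gene of the fractalkine receptor. The transplanted cells were isolated by fluorescence-activated cell sorting, whereas the cultured cells are labelled only as cell culture. The labels give 1 protocol for all samples, in which mice ate chow with the Csf1r inhibitor PLX3397 at 600 mg/kg through 3 depletion cycles before they received cells, so they do not say which animals each group came from. They also do not give the age of the animals, the culture medium, the source of the transplanted cells, or whether replicates were separate animals or cultures, so the p-values reflect how much these libraries vary, which may be technical variation only. Residence in the brain, sorting, age and donor cannot be told apart as sources of a difference between these groups.

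Microglia are the macrophages of the brain parenchyma. They enter the brain in the embryo, survive on signals through the receptor Csf1r, and in the adult brain keep a homeostatic programme that depends on transforming growth factor beta (TGF-beta) and on transcription factors such as Sall1. That programme includes surface receptors that sense purines, chemokines and lipids released by neighbouring cells, and it is known to fade when microglia are taken out of the brain and grown on plastic. Macrophages in culture commonly take up adhesive, inflammatory and proliferative gene programmes in its place.

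The libraries held 26705034 to 28219696 expected counts each in culture and 18692721 to 19761208 after transplantation, and 13370 to 13876 against 14204 to 14487 genes were detected. Of 12284 genes tested, 4523 were higher in transplanted cells (36.8%) and 4355 were lower (35.5%) at an adjusted p under 0.05 in edgeR's quasi-likelihood test, from which every adjusted p below comes. With a difference of at least 8-fold as well, 753 genes were higher (6.13%) and 875 lower (7.12%). No transplanted library overlapped a cultured library for 9007 genes (73.3%), so a gene without overlap was the rule and not the exception here. The median log2 fold change over all genes was 0.05, with quartiles at -0.99 and 1.06. Levels below are CPM, counts relative to the total of the library, scaled by the trimmed mean of M-values over these 7 libraries, and fold changes are transplanted over cultured, as fitted by the model, on the log2 scale with their standard error (SE). The first principal component held 89.5% of the variance and separated the groups, and the second, with 4.41%, set cultured replicate 2 apart from the other cultured libraries. Short genes sat lower: the median log2 fold change was -1.47 in the shortest 10% of genes by effective length and 0.50 in the longest 10%. Values per length, the authors' TPM, in which the length-corrected values of a library add up to the same total, moved the median of all genes from 0.05 to 0.96, and 80.3% of the genes called on that scale were higher, against 50.9% on counts. The TPM fit had no further scaling between libraries. TPM values and calls below, of single genes too, therefore carry that shift unless given relative to the median gene. Where either scale moves the share of a list's calls that are higher by over 10 percentage points, the numbers called higher and lower on it are given. A list whose median changes sign there, or with the trend over gene length removed, is marked below, with its value relative to the median gene. The lists hold 1245 entries in 57 lists, of which 1230 were in the table and 1106 passed the filter on low counts, which keeps genes that are high in only 1 group; counts over tested members are therefore not counts over all members. All lists were chosen with earlier results of these data known, so their counts describe these libraries only.

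The genes that were at least 8-fold lower made up 35.2% to 36.4% of all counts in the cultured libraries and 1.89% to 2.66% in the transplanted libraries. Those at least 8-fold higher made up 11.5% to 13% of the transplanted counts and 0.429% to 0.538% of the cultured counts. Among the genes tested, 145 had no count in any library of 1 of the groups. With 3 counts over the group put in place of 0, each of these stayed past 8-fold. The filter on low counts keeps such a gene only if the other group is well above 0, so this outcome was largely set in advance. The floor of 3 counts allows for counting error only, and so do the folds given below as at least a value. A bulk library cannot tell apart fewer cells that carry a transcript and less of it per cell.

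**Figure D1:**
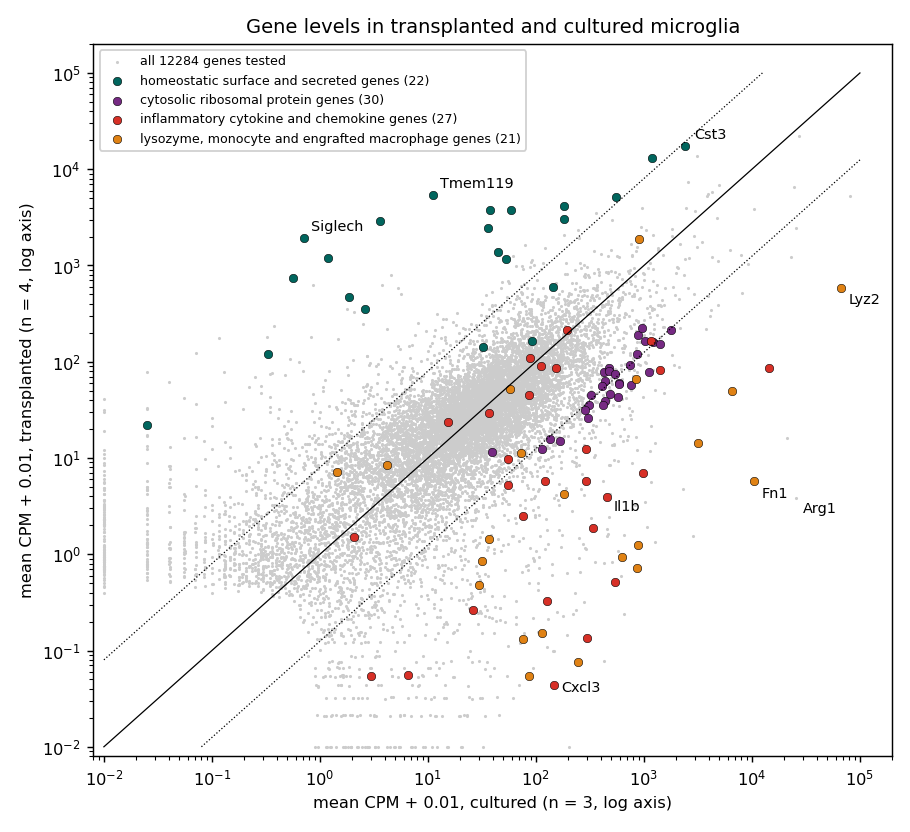
Mean CPM plus 0.01 of the 12284 genes tested in cultured (x, n = 3) and transplanted cells (y, n = 4), on log axes; the solid line marks equal levels, the dotted lines 8-fold differences, and coloured points the members of 4 gene lists. The homeostatic genes lie above the line and the ribosomal protein, lysozyme and monocyte genes mostly below it.

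The macrophage identity of both groups was checked first. Of 19 genes shared by macrophages in general, 11 rose and 5 fell after transplantation (median log2 fold change 0.45, with 16 higher and 3 lower on the TPM scale). Csf1r, the receptor for the survival factors CSF1 and IL-34, stood at 3822, 1905 and 3635 CPM in the cultured libraries and 13888, 14884, 12722 and 13961 CPM in the transplanted libraries. It was high in all 7 and higher in each transplanted library, with a log2 fold change of 2.14 ± 0.23 (adjusted p = 2.08e-05). Adgre1, the gene of the macrophage antigen F4/80, is not in that list and was picked as one of the abundant genes with the smallest difference. It did not pass the test, at 728, 433 and 701 CPM in culture and 638, 622, 512 and 735 CPM after transplantation. The signalling adaptors Tyrobp and Fcer1g, short genes both, had log2 fold changes of -1.59 ± 0.15 and -1.45 ± 0.14, but of 0.54 and 0.43, in the other direction, once the trend with gene length was removed. The phagocyte oxidase gene Cyba fell by 1.95 ± 0.16 on the log2 scale, while the kinase gene Lyn and the tetraspanin gene Cd37 rose by 1.28 ± 0.12 and 1.98 ± 0.12.

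The homeostatic genes of microglia formed the list that was raised most. All 22 members were tested and all 22 were higher in transplanted cells, 18 of them by at least 8-fold. Of all genes tested, 36.8% were higher and 6.13% were higher by at least 8-fold. The list was chosen with earlier results of these data known, so its counts are only a description. The list's median was 6.02 on the log2 scale. Tmem119, a membrane protein gene used to tell microglia from other macrophages (chromosome 5, 113793729 to 113800396, in the RefSeq annotation of GRCm38.p6), was near the bottom of the cultured libraries at 12.5, 8.30 and 12.6 CPM and at 6015, 6205, 4889 and 4611 CPM in the transplanted libraries. Every transplanted library lay far above every cultured library, with a fitted difference of 483-fold, a log2 fold change of 8.92 ± 0.26 (adjusted p = 6.11e-09). P2ry12, the ADP receptor that steers microglial processes toward injury, had 43.6, 23.9 and 44.3 CPM in culture and 3958, 4555, 2782 and 3618 CPM in the brain, 99.3-fold more. Cultured replicate 2 was the lowest cultured library for both genes. Its relative P2ry13 rose by 6.07 ± 0.26, and the fractalkine receptor gene Cx3cr1, which carries the reporter in these mice, rose by 4.52 ± 0.14.

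Siglech, a sialic acid-binding lectin gene (chromosome 7, 55768154 to 55779448), gave the largest fold of that list, from 0.855, 0.411 and 0.827 CPM in the cultured libraries to 1940.0, 2124, 1635 and 2070.4 CPM in the transplanted libraries. The groups did not overlap and the fitted difference was 2736-fold, a log2 fold change of 11.42 ± 0.28 (adjusted p = 3.02e-09). Slc2a5, the fructose transporter gene that marks microglia among brain cells, was at 0.183 to 0.965 CPM in culture and 599 to 873 CPM after transplantation; without cultured replicate 3, where it was highest, its log2 fold change was 11.06 against 10.38 ± 0.40 with it. Crybb1, a crystallin gene, rose by 8.51 ± 0.43, or 9.49 without cultured replicate 2. Genes that cultured cells still carried rose less. Cst3, which encodes the secreted protease inhibitor cystatin C, had 2203, 2838 and 2122 CPM in culture and 17687, 21324, 15227 and 15009 CPM after transplantation, a log2 fold change of 2.84 ± 0.19. Olfml3 and Fcrls, which encode a secreted matrix protein and an Fc receptor-like protein, rose by 5.97 ± 0.15 and 4.05 ± 0.17. Upk1b, a uroplakin gene, had 1 count in culture and 9.97 to 32.1 CPM after transplantation, for a ratio of 1454 (95% exact interval 261 to 57440.0, which covers counting error only, as do the other intervals of ratios below).

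**Figure D2:**
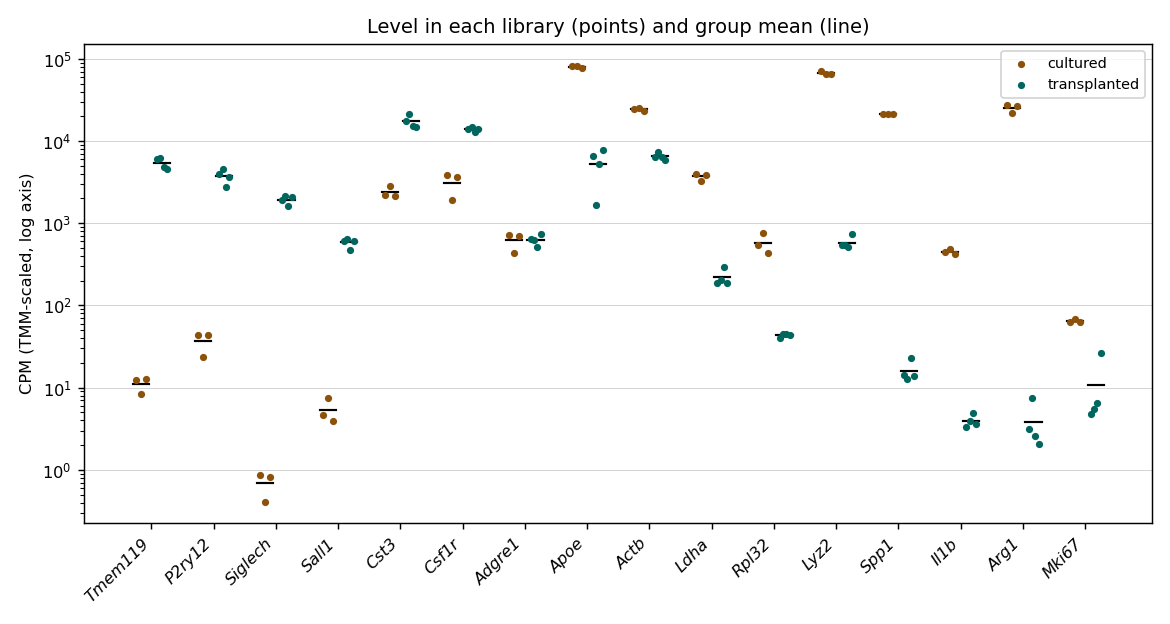
CPM on a log axis of 16 genes in each library (points) with the group mean (line), cultured in brown (n = 3) and transplanted in green (n = 4). Tmem119, P2ry12, Siglech, Sall1, Cst3 and Csf1r are higher in every transplanted library, Adgre1 overlaps, and the genes to its right are lower in every transplanted library.

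Transcription factor genes of microglia were mostly higher, by unequal amounts. Of 18 microglial transcription factor genes, 13 were higher, 1 was lower and the rest did not pass the test (median 1.21). Sall1, the zinc finger factor that maintains microglial identity, was at 4.59, 7.39 and 3.91 CPM in culture and 600.0, 645, 477 and 613 CPM in transplanted cells, a log2 fold change of 6.77 ± 0.28 (adjusted p = 4.3e-08), with no overlap between the groups. Its relative Sall3 rose, with 1.80 to 2.34 CPM in culture and 102 to 106 CPM after transplantation, and Ets1 and Smad3, the latter a carrier of the TGF-beta signal, rose by 3.89 ± 0.13 and 2.78 ± 0.18. The member that fell was Runx1, a factor of blood cell development, with a log2 fold change of -0.90 ± 0.19; it did not pass the test on the TPM scale, and transplanted replicate 3 was its highest transplanted library at 175 CPM against 104 to 111 CPM in the other 3.

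The TGF-beta pathway gave 11 genes higher and 4 lower of 19 tested (median 0.65, with 15 higher and 2 lower on the TPM scale). Tgfbr1, the type I receptor, stood at 84.03, 61.1 and 90.5 CPM in culture and 1720.0, 1843, 1366 and 1594 CPM after transplantation (4.36 ± 0.20, adjusted p = 7.05e-08), with every transplanted library above the highest cultured one. The co-receptor gene endoglin (Eng) rose by 4.09 ± 0.25. The ligand gene Tgfb3 fell by 6.55 ± 0.60 and Ltbp3, which holds latent TGF-beta in the matrix, fell by 5.31 ± 0.23 on the log2 scale. The ligand gene Tgfb1 had a log2 fold change of -0.83 ± 0.20, a call that was lost on the TPM scale.

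Receptor genes for transmitters of the nervous system were mostly higher among those tested. Of 22 neurotransmitter and neuropeptide receptor genes in the table, 13 passed the filter on low counts, which keeps genes that are high in only 1 group. Of these 13, 10 were higher and 2 lower (median 2.85, with 10 higher and none lower on the TPM scale). Vipr1, the receptor gene for vasoactive intestinal peptide, was at 0 to 0.18 CPM in culture and 10.98 to 18.2 CPM in the brain (7.52 ± 0.53, or 9.04 without cultured replicate 1). Gabbr1, a subunit gene of the GABA-B receptor, was at 0.09 to 0.502 against 12.6 to 14.8 CPM (5.79 ± 0.44, or 6.85 without cultured replicate 2). The alpha-2A adrenergic receptor gene Adra2a and the calcitonin-receptor partner gene Ramp1 were lower. The log2 fold change of Adra2a was -4.23 ± 0.74, or -3.54 without cultured replicate 2 and -5.00 without transplanted replicate 1, and that of Ramp1 was -1.62 ± 0.31, not called on the TPM scale.

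Genes of purine signalling were called in both directions, as were all genes tested, 36.8% of them higher and 35.5% lower. Of 18 receptor and ectoenzyme genes, 8 were higher and 9 lower (median -0.80, but 0.34 on the TPM scale, -0.62 relative to the median gene there, with 8 higher and 5 lower). Adora2b, the low-affinity adenosine receptor gene, was one of the most complete losses, at 222, 212 and 221 CPM in culture and 0.3, 0.181, 0.22 and 0.228 CPM in transplanted cells, a log2 fold change of -9.85 ± 0.17 (adjusted p = 9.7e-10). The 4 transplanted libraries lay close together near 0. Nt5e, the CD73 enzyme that makes adenosine from AMP, fell by 7.14 ± 0.34 on the log2 scale. Adora1, the A1 adenosine receptor gene, had 1 count over the cultured libraries and 3.30 to 6.70 CPM in the brain, a ratio of 331 (95% exact interval 59.05 to 13088). P2ry1 had no count in the transplanted libraries and was at least 50.6-fold lower there.

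Chemokine receptor genes were also called in both directions, with 6 higher and 8 lower of 16 tested (median -1.01, but 0.26 on the TPM scale, -0.70 relative to the median gene there, with 7 higher and 6 lower). Cx3cr1, above, rose, while Ccr1, a receptor of inflammatory chemokines, was lower at 244, 88.9, 279.9 and 259 CPM after transplantation against 1377, 1017 and 1324 CPM in culture (-2.52 ± 0.33); transplanted replicate 2 was its lowest library. The scavenging receptor gene Ackr3 and the formyl peptide receptor genes Fpr1 and Fpr2 fell, with log2 fold changes of -7.77 ± 0.32, -6.87 ± 0.37 and -6.54 ± 0.50. Among 24 ion channel genes, 13 rose and 5 fell (median 0.48, with 21 higher and 2 lower on the TPM scale, and with 9 higher and 8 lower without the length trend). The potassium channel gene Kcnk13, through which microglia set their resting potential, rose by 1.89 ± 0.19, Kcnd1 by 5.30 ± 0.37, or 5.94 without cultured replicate 2, and the cation channel gene Trpm2 by 4.64 ± 0.15. Kcna3, the voltage-gated channel Kv1.3 known from activated cells, fell by 3.04 ± 0.28 on the log2 scale.

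Lectin and immunoreceptor genes were called in both directions, against a background of 36.8% higher and 35.5% lower. Of 30 Siglec, C-type lectin and other immunoreceptor genes, 12 were higher and 16 lower (median -0.82, but 0.13 on the TPM scale, -0.83 relative to the median gene there). Lag3, an inhibitory receptor gene, was at 0.765, 0.867 and 0.919 CPM in culture and 623, 731, 558 and 615 CPM in transplanted cells, 731-fold more (9.51 ± 0.21). Lag3 was thus near 0 in each cultured library and well above it in each transplanted library. The inhibitory lectin gene Siglece rose by 4.94 ± 0.21. The lectins that sense fungi and dead cells were nearly absent after transplantation: Clec4e (Mincle) went from 109, 85.00 and 116 CPM to 0.0858, 0, 0.22 and 0.274 CPM, and Clec4d and Clec4n fell, with log2 fold changes of -9.82 ± 0.30 and -9.26 ± 0.47. Siglec1, the sialoadhesin of tissue macrophages, fell by 6.18 ± 0.27 and Clec10a fell by 8.49 ± 0.35.

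Of 21 genes of the Toll-like receptor pathway tested, 12 were higher and 7 lower (median 0.89, with 15 higher and 3 lower on the TPM scale). Tlr3, the sensor of double-stranded RNA, rose from 13.9, 6.02 and 9.97 CPM to 135, 142, 118 and 119 CPM, and Tlr5, the flagellin sensor, was at 0.138 to 0.495 against 26.9 to 37.6 CPM, highest in transplanted replicate 4. Tlr12 rose by 7.26 ± 0.65, or by 9.55 without cultured replicate 1, which held most of its cultured counts. Tlr8, a sensor of single-stranded RNA, fell by 4.68 ± 0.55, and Cd14, which hands bacterial lipopolysaccharide to its receptor complex, fell, with 1047 to 1196 CPM in culture and 298 to 351 CPM after transplantation. Tlr2, the lipoprotein sensor, had a log2 fold change of -1.17 ± 0.21, a call that was lost on the TPM scale.

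**Figure D3:**
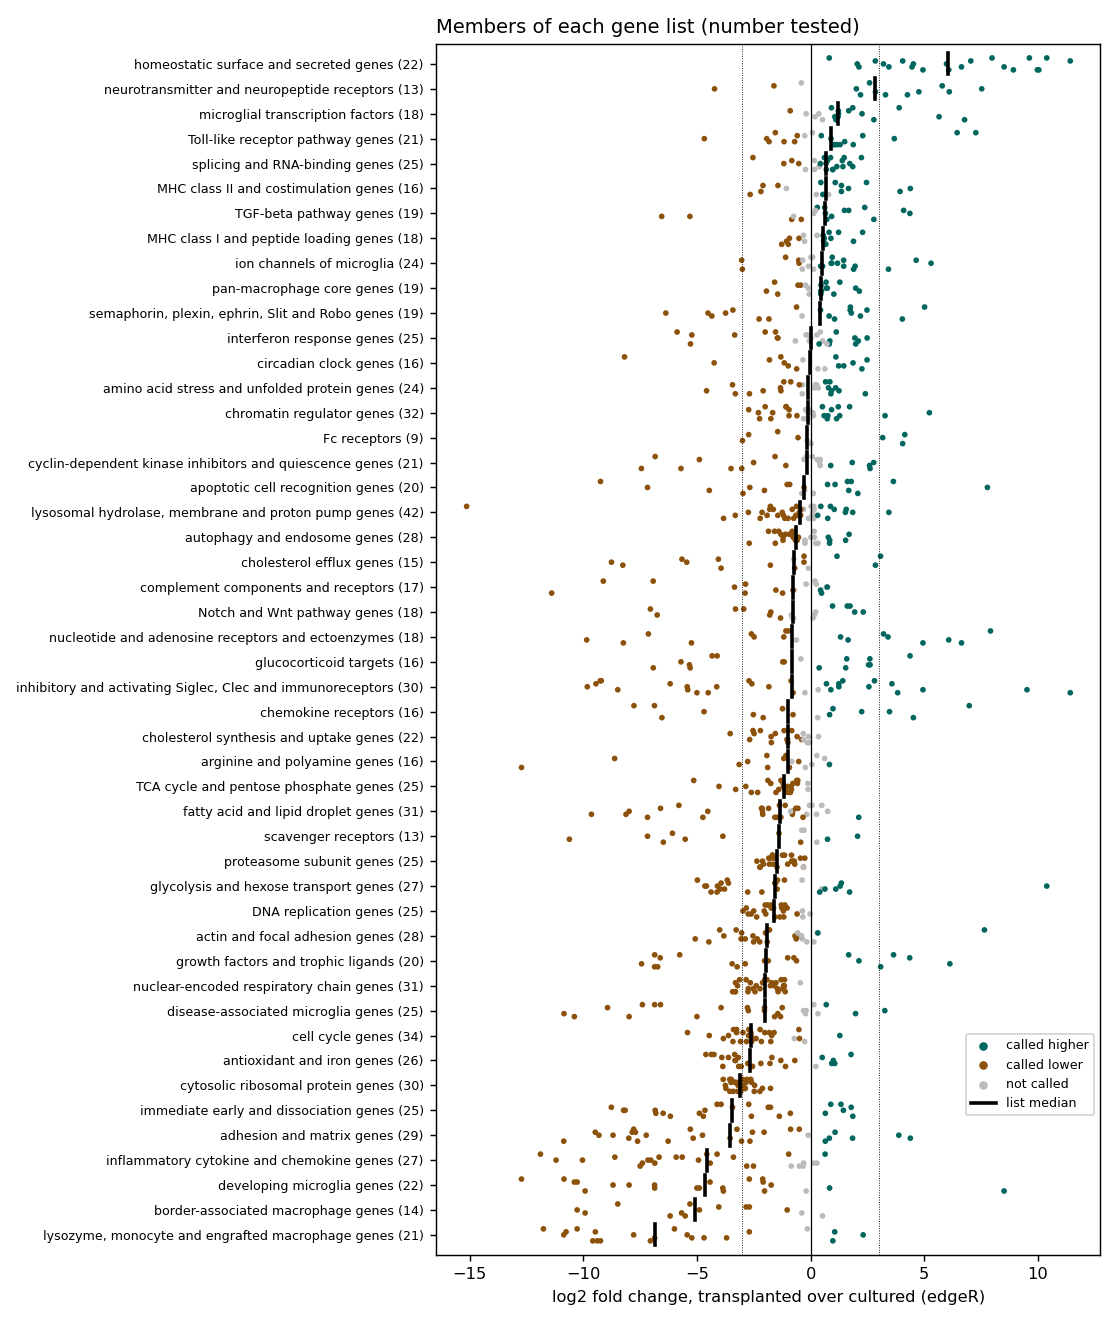
Log2 fold change of each tested member of 48 gene lists (points; green called higher, brown called lower, grey not called) with the list median (bar) and dotted lines at 8-fold. Lists are ordered by median, from 6.02 for homeostatic genes to -6.86 for lysozyme and monocyte genes, and most lists in between hold members on both sides of 0.

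Several of the highest folds belonged to genes that cultured cells hardly carried. Ecscr, a membrane protein gene known from endothelium, was at 0.0456 to 0.138 CPM in culture and 146 to 204 CPM after transplantation (10.63 ± 0.28). Tppp, a tubulin-binding protein gene known from oligodendrocytes, was at 0 to 0.137 against 87.3 to 156 CPM (10.84 ± 0.49, or 12.08 without cultured replicate 2). Asb2, a subunit gene of a ubiquitin ligase, was at 64.3 to 91.1 CPM after transplantation, with 1 count in culture and a ratio of 5109 (95% exact interval 917 to 201821). The anoctamin family gene Ano7 had no count in culture and was at least 415-fold higher at 18.1, 18.6, 16.9 and 22.1 CPM. The thyroid hormone-responsive gene Thrsp stood at 37.6 to 75.9 CPM after transplantation, a ratio of 2011 (95% exact interval 556 to 16606) against 2 counts in culture. Ttr, which encodes the thyroxine carrier transthyretin and is made in the choroid plexus, varied widely at 55.3, 29.6, 37.7 and 9.12 CPM across the transplanted replicates, with 1 count in culture; which cells it came from was not tested. Entpd4, a nucleotide-cleaving enzyme gene with no count in culture, was at 22.2 CPM in transplanted replicate 4 and 6.99 to 7.38 CPM in the other 3, and Gm3005, Gm3739 and Gm3752 likewise had none in culture; these have near-identical copies in the genome, so their counts are uncertain.

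Inflammatory messenger genes were lower in transplanted cells. Of 27 cytokine and chemokine genes tested, 20 were lower in transplanted cells and 1 was higher (median -4.57, with 5 higher and 19 lower on the TPM scale), and 17 were at least 8-fold lower; without cultured replicate 2, 2 were higher. The member that rose was Il18, an interleukin made as an inactive precursor, by 0.63 ± 0.15. Il1b, the central cytokine of the inflammasome, stood at 449.7, 484 and 419 CPM in culture and 3.30, 3.89, 4.92 and 3.60 CPM in the brain, 116-fold less (-6.85 ± 0.18, adjusted p = 3.36e-09). The spread within each group was small beside this gap. Il1a fell less, with 936 to 1291 CPM in culture and 148 to 187 CPM after transplantation. Ccl6 and Ccl7, chemoattractants of monocytes, fell, with log2 fold changes of -7.40 ± 0.16 and -10.04 ± 0.21. The acute-phase gene Saa3 went from 248, 428 and 215 CPM to 0.0429, 0.136, 0.0878 and 0.228 CPM.

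The neutrophil chemoattractants Cxcl1, Cxcl2 and Cxcl3 lie near each other on chromosome 5, and all 3 fell; Cxcl1 and Cxcl2 were named after their values were seen. Cxcl2 went from 123, 148 and 109.7 CPM in culture to 0.472, 0.272, 0.351 and 0.182 CPM after transplantation (-8.61 ± 0.24), and Cxcl1 from 7.02, 6.80 and 5.65 to 0, 0.0906, 0 and 0.0912 CPM (-7.03 ± 0.58). Both were present in each cultured library and close to 0 in each transplanted library. Cxcl3 had 128 to 176 CPM in culture and 3 counts over the 4 transplanted libraries, for a ratio of 4383 (95% exact interval 1499 to 21256). Their promoters are printed here because all 3 carry the letters of an NF-kB site, the element through which inflammatory signals switch on chemokine genes; each line gives the 100 bases before the RefSeq start on GRCm38.p6, 5′ to 3′, with matches to GGGA, any 4 bases and CC, on either strand, in capitals.
Cxcl1 (chr5:90891145-90891244, plus strand): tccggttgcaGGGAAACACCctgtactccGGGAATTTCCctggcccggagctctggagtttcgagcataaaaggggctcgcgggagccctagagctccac
Cxcl2 (chr5:90903799-90903898, plus strand): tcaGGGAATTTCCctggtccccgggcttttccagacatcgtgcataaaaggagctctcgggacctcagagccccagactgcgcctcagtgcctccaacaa
Cxcl3 (chr5:90786001-90786100, plus strand): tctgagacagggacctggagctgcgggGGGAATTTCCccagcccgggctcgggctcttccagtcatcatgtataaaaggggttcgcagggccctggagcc
The letters occurred in 9 of 24 promoter windows of the list (37.5%), in 28.8% of windows of genes at least 8-fold lower, in 26.6% of those of genes not called, in 42.3% of those of ribosomal protein genes and in 20.7% of all 32851 windows, each from 250 bases before to 50 bases after a start. The TATA box letters TATAAA occurred in 41.7% of the list's windows and 13.6% of all windows, or 6.92% for genes not called. A match is a description of letters and not a sign of binding.

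Immediate early genes, which respond within minutes to stimulation and to tissue dissociation, were mostly lower in the sorted cells, 19 of 25 against 6 higher (median -3.44). Egr2 went from 489, 403 and 489.6 CPM to 1.80, 1.27, 1.45 and 1.96 CPM (-8.16 ± 0.19), and the nuclear receptor gene Nr4a1 fell, with 352 to 517 against 1.19 to 1.81 CPM. Fos was lower but uneven, at 238, 239 and 225 CPM in culture and 3.60, 2.04, 21.9 and 8.30 CPM after transplantation (-4.72 ± 0.65, or -5.66 without transplanted replicate 3). Its partner Jun was higher, at 218 to 304 CPM against 58.4 to 79.04 CPM (1.78 ± 0.17), as were the heat shock genes Hspa1a and Hsph1 by 1.85 ± 0.49 and 1.44 ± 0.33. When all 11 libraries shared the fit, 2 genes of this list were called higher and 16 lower, and none of Fos, Jun and Hspa1a was called.

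Genes that respond to interferon gave 8 higher and 8 lower of 25 (median 0.01, with 16 higher and 5 lower on the TPM scale), near the 36.8% and 35.5% of all genes tested; without transplanted replicate 3, 5 were higher and 8 lower. Among the largest falls were genes of membrane proteins that block virus entry, Ifitm2 with 445 to 565 against 4.85 to 12.9 CPM and Ifitm3 with 471 to 636 against 8.11 to 19.8 CPM. Stat2, which carries the interferon signal, and the deconjugating protease gene Usp18, which limits it, rose by 2.10 ± 0.26 and 2.48 ± 0.30. The letters of the interferon-stimulated response element (GAAA, any 2 bases, GAAA) stood in 65.2% of the 23 windows of this list and in 3.44% of all windows, or 2.84% for genes not called.

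Genes of monocytes, of macrophages that engraft the brain from blood, and of border macrophages marked the cultured libraries. Of 21 lysozyme, monocyte and engrafted macrophage genes, 17 were lower in transplanted cells and 3 higher (median -6.86), and of 14 border-associated macrophage genes 12 were lower and none passed the test as higher (median -5.10, with 2 higher and 11 lower on the TPM scale), though 1 did without cultured replicate 2. The summed level of the border list was 5628 to 6299.8 CPM in culture and 703 to 1015 CPM after transplantation; Lyve1 and Cd163, which define such cells in the brain, were at 0.27 to 0.502 and 0.46 to 1.48 CPM in culture and 0 to 0.408 and 0 to 0.0906 CPM after transplantation. The part of such cells in the difference was not tested. Lyz2, the lysozyme gene that monocytes express strongly, was the second most abundant gene of cultured cells at 70426, 64726 and 66284 CPM and stood at 542, 539, 507 and 742 CPM in the brain, 116-fold less (-6.86 ± 0.18, adjusted p = 4.25e-09). Transplanted replicate 4 was the highest of the 4, still far under every cultured library, and reads of Lyz2 and its near copy Lyz1 may be shared. Mrc1, the mannose receptor gene, fell, with 582 to 772 CPM in culture and 11.8 to 20.9 CPM after transplantation, and Pf4, platelet factor 4, with 931 to 1776 against 0.703 to 1.82 CPM. F13a1, a clotting factor gene of border macrophages, had a log2 fold change of -10.27 ± 0.56, or -11.16 without transplanted replicate 2. Ms4a7 was uneven, at 70.5, 83.6 and 64.5 CPM against 14.03, 1.49, 6.94 and 22.9 CPM (-2.70 ± 0.62, or -3.29 without transplanted replicate 4). Ly6e and Ly6a, small membrane proteins, were among the members that rose, by 1.06 ± 0.11 and 2.31 ± 0.28.

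Cultured cells also carried genes of developing and of disease-associated microglia. Of 22 genes of the developing brain, 19 were lower after transplantation and 2 higher (median -4.66), and of 25 disease-associated genes 17 were lower and 3 higher (median -2.03, with 8 higher and 15 lower on the TPM scale, and with 6 higher and 16 lower without the length trend); the lists share members, and with any library but cultured replicate 2 left out, 1 gene of the first was higher. Spp1, the matrix cytokine osteopontin, was at 21406, 21029 and 21460.1 CPM in culture and 14.2, 12.7, 23.1 and 13.9 CPM in transplanted cells, 1345-fold less (-10.39 ± 0.27, adjusted p = 4.09e-09). It was among the most abundant genes of every cultured library and a minor one after transplantation. Gpnmb, a glycoprotein of lipid-loaded macrophages, went from 3174, 2388 and 2903 to 0.6, 2.04, 1.62 and 1.92 CPM. Lgals3, the galectin of phagocytic macrophages, and Fabp5, a fatty acid carrier gene, fell, with log2 fold changes of -8.93 ± 0.21 and -7.99 ± 0.24. Igf1, which supports neuron survival and myelination, fell, with 475 to 511 CPM in culture and 2.45 to 6.57 CPM after transplantation. Apoe, the lipid carrier that was the most abundant cultured transcript, was at 82344, 81262 and 77169 CPM in culture and at 6508, 1646, 5186 and 7767 CPM after transplantation (-3.94 ± 0.43); transplanted replicate 2 lay well under the other 3. Cst7, a cystatin gene of the same disease list, and the adhesion gene Cadm1 rose by 1.97 ± 0.30 and 3.26 ± 0.22.

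Arg1, which splits arginine and marks alternatively activated macrophages (chromosome 10, 24915207 to 24927470), showed the largest fold among the genes that lead the cultured libraries. It stood at 27476, 22189 and 26334 CPM in culture and 3.17, 7.38, 2.55 and 2.05 CPM in transplanted cells, 6746-fold less (-12.72 ± 0.50, adjusted p = 3.32e-08). Transplanted replicate 2 was the highest of the 4, at a trace of any cultured level. The arginine transporter gene Slc7a2 also fell, with 246 to 269 against 0.386 to 1.23 CPM, and Arg2 fell by 3.15 ± 0.36. Of 16 arginine and polyamine genes, 10 were lower and 1 was higher (median -1.01, with 6 higher and 5 lower on the TPM scale); without cultured replicate 2 or 3, 2 were higher. Other genes near the bottom were Ear2 and Rnase2a, eosinophil-type ribonucleases with near-identical copies and therefore uncertain counts; the coagulation factor gene F7, with no count in the brain and at least 964-fold lower; Selp, the adhesion molecule P-selectin, at least 626-fold lower; and the plasminogen activator inhibitor gene Serpinb2, at least 464-fold lower. The purine enzyme gene Gda fell, with 219 to 287 CPM in culture and 0 to 0.137 CPM after transplantation, and the lectin gene Fcna with 597 to 703 against 0.0456 to 0.408 CPM.

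Genes of cell adhesion were mostly lower. Of 29 adhesion and matrix genes, 22 fell and 6 rose (median -3.54). Fn1, the matrix glycoprotein fibronectin, was at 11465, 8053 and 12027 CPM in culture and 3.26, 6.11, 6.94 and 6.52 CPM in the brain (-10.86 ± 0.33, adjusted p = 6.99e-09), a gap far wider than the spread in either group. The hyaluronan receptor gene Cd44 fell, with 583 to 621 CPM in culture and 13.5 to 19.8 CPM after transplantation, and the annexin gene Anxa1 fell by 9.31 ± 0.24. Itga9, an integrin subunit gene, and the gelatinase gene Mmp2 rose, by 4.38 ± 0.18 and 3.88 ± 0.30. Actin and focal adhesion genes followed, 20 of 28 lower (median -1.90, with 8 higher and 16 lower on the TPM scale). Actb went from 24790.5, 25046 and 23089 CPM to 6439, 7397, 6353 and 5936 CPM (-1.91 ± 0.12) and Actg1 fell by 3.06 ± 0.15. The capping protein gene Capg and gelsolin (Gsn) fell, with log2 fold changes of -4.48 ± 0.14 and -5.08 ± 0.25. Against this, Fscn1, which bundles actin in thin processes, was near 0 in culture at 1.66, 1.69 and 1.93 CPM and at 379, 454, 300.2 and 293 CPM in transplanted cells (7.64 ± 0.25, adjusted p = 1.02e-08).

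Of 20 growth factor genes tested, 6 were higher and 14 lower (median -1.95); without the length trend 5 and 14 were called, and on the TPM scale 5 and 8 of 16. Pdgfb, a growth factor gene for mural cells, rose, with 3.10 to 4.93 CPM in culture and 47.2 to 54.7 CPM after transplantation. Vegfa, the main factor of vessel growth, had a log2 fold change of -7.44 ± 0.59, or -6.62 without cultured replicate 2, where it was highest at 69.03 CPM, and Bmp2 fell by 6.86 ± 0.47. Of 19 axon guidance genes, 10 were higher and 8 lower (median 0.43, with 10 higher and 5 lower on the TPM scale, and -0.05 without the length trend). The semaphorin gene Sema4d rose by 2.48 ± 0.18, whereas the plexin receptor genes Plxnd1, Plxna1 and Plxnc1 fell, with log2 fold changes of -6.37 ± 0.28, -4.52 ± 0.19 and -4.35 ± 0.23. Among 18 Notch and Wnt genes, 5 were higher and 7 lower (median -0.78, but 0.84 on the TPM scale, -0.12 relative to the median gene there, with 8 higher and 5 lower, and with 5 higher and 11 lower without the length trend). The background over all genes tested was 36.8% higher and 35.5% lower. Only 19 of 28 axon guidance genes and 18 of 30 Notch and Wnt genes in the table were tested. The receptor gene Notch1 did not pass the test at 0.11 ± 0.15, but had 1.11 on TPM values and -0.45 without the length trend, both called. The ligand gene Jag1 fell by 3.31 ± 0.48 and the coactivator gene Maml2 rose by 1.94 ± 0.14.

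Genes of phagocytosis were called in both directions, against 36.8% higher and 35.5% lower of all genes tested. Scavenger receptor genes were more often lower on counts. Of 20 genes for recognising dying cells, 8 were higher and 9 lower (median -0.28, but 0.99 on the TPM scale, 0.03 relative to the median gene there, with 12 higher and 5 lower). Mertk, the receptor kinase that clears apoptotic cells and synapses, rose from 213, 152 and 213 CPM to 825, 898, 761.8 and 786 CPM (2.07 ± 0.15), while its sister kinase gene Axl fell, with 772 to 896 CPM in culture and 146 to 296 CPM after transplantation (-2.03 ± 0.24). The groups did not overlap for either kinase. The integrin subunit gene Itgb3 was at 0.138 to 0.45 against 52.8 to 98.4 CPM, and the engulfment gene Elmo1 rose by 3.64 ± 0.25. Timd4, a phosphatidylserine receptor gene of resident tissue macrophages, had 21.3 to 25.4 CPM in culture and 3 counts over the transplanted libraries, a ratio of 702 (95% exact interval 239.7 to 3407), and the lipid scavenger gene Cd36 fell by 7.18 ± 0.35. Of 13 scavenger receptor genes, 8 were lower and 2 higher (median -1.39, with 6 higher and 6 lower on the TPM scale). Msr1 fell, with 631 to 858 CPM in culture and 2.45 to 14.9 CPM after transplantation, and Marco, which binds bacteria and particles, from 101, 93.3 and 90.02 CPM to 0.0429, 0.136, 0 and 0.0456 CPM (-10.61 ± 0.31, or -11.44 without transplanted replicate 2).

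Complement genes were more often lower than higher on counts. Of 17 complement genes, 3 were higher and 9 lower (median -0.78, but 0.02 on the TPM scale, -0.94 relative to the median gene there, with 7 higher and 7 lower). C1qa, a chain of the C1q molecule that tags synapses, was at 3733, 4439.9 and 3528 CPM in culture and 5386, 5896, 5607 and 5073 CPM after transplantation, 1.39-fold more (0.48 ± 0.13). The lowest transplanted library still lay above the highest cultured library. Properdin (Cfp), which drives the alternative pathway, fell from 1099, 1064 and 1019 to 2.10, 1.99, 1.93 and 1.64 CPM, C3 fell by 2.88 ± 0.34 and the complement receptor gene Vsig4 had no count in the brain and was at least 450.2-fold lower. Of 9 Fc receptor genes, 3 rose and 4 fell (median -0.15, but 0.76 on the TPM scale, -0.20 relative to the median gene there, with 5 higher and 3 lower, and 0.40 without the length trend, with 5 higher and 2 lower). Among all genes tested, 36.8% were higher and 35.5% lower. Fcgr1 did not pass the test at 0.01 ± 0.12, Fcgr4 fell by 2.73 ± 0.22 and Fcrl1 rose by 4.14 ± 0.21.

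Of 16 genes for antigen presentation on class II molecules, 9 were higher and 4 lower (median 0.66). The accessory chain genes H2-Oa and H2-Ob, which tune peptide loading, rose by 3.93 ± 0.20 and 4.38 ± 0.20. The classical chain gene H2-Ab1 and the invariant chain gene Cd74 were lower in the brain, Cd74 at 98.2, 139.9 and 105 CPM in culture against 22.8, 25.6, 21.4 and 38.1 CPM (-2.10 ± 0.22). For class I, 9 of 18 were higher and 5 lower (median 0.56, with 14 higher and none lower on the TPM scale, and with 12 higher and 2 lower without the length trend); the peptide transporter gene Tap2 rose by 1.23 ± 0.11. The light chain gene B2m had -0.98 ± 0.12 on counts, did not pass the test on TPM values, and had 0.40 without the length trend.

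The lysosomal genes as a sum overlapped between the groups, while single members moved in both directions. The summed level of 42 lysosomal genes was 70403 to 91184 CPM in culture and 71632 to 78512 CPM in transplanted cells, while 9 members were higher and 23 lower (median -0.47, but 0.63 on the TPM scale, -0.33 relative to the median gene there, with 27 higher and 11 lower). Ctsd, the protease cathepsin D and the most abundant transplanted transcript, did not pass the test at -0.31 ± 0.13 (adjusted p = 0.059), but was called lower without cultured replicate 2, at -0.43. On the TPM scale Ctsd was called higher, at 0.81, which is under the median gene there, at 0.96. Cathepsin B (Ctsb) fell by 1.45 ± 0.17, whereas legumain (Lgmn), which cuts after asparagine, rose, with 2069 to 2828 CPM in culture and 6841 to 7862 CPM after transplantation (1.53 ± 0.14), and the sulfatase gene Arsb by 1.85 ± 0.17. Atp6v0d2, a proton pump subunit of fused and lipid-handling macrophages, gave the largest difference of all genes by the fitted value. It had 225, 154 and 223 CPM in culture and no count in the 4 transplanted libraries, at least 6024-fold lower. Autophagy and endosome genes gave 5 higher and 16 lower of 28 (median -0.63, but 0.55 on the TPM scale, -0.41 relative to the median gene there, with 16 higher and 4 lower); the vesicle marker gene Gabarap fell by 2.70 ± 0.19, while Gabarapl2 did not pass the test at 0.01 ± 0.15, but was called higher with the length trend removed, at 1.18.

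Lipid handling genes were more often lower than higher on counts. Of 31 fatty acid and lipid droplet genes, 23 were lower and 1 was higher (median -1.37, with 10 higher and 14 lower on the TPM scale). Pparg, the nuclear receptor that drives lipid uptake, fell from 35.99, 45.1 and 42.8 CPM to 0.172, 0.226, 0.132 and 0.0456 CPM (-8.12 ± 0.29, adjusted p = 1.78e-08), and the fatty acid carrier gene Fabp4 had no count in the brain and was at least 134-fold lower. The gene that rose was Lipe, hormone-sensitive lipase, by 2.11 ± 0.21. Of 22 cholesterol synthesis and uptake genes, 15 were lower and none passed the test as higher (median -1.01, but 0.11 on the TPM scale, -0.85 relative to the median gene there, with 8 higher and 8 lower), though 1 did without cultured replicate 3. The synthesis gene Mvd fell by 2.54 ± 0.12; Hmgcs1, an early enzyme of the pathway, did not pass the test at -0.05 ± 0.19, had 1.01 on TPM values and -0.42 without the length trend. In the cholesterol efflux list, with 3 higher and 10 lower of 15 (median -0.74, but 0.19 on the TPM scale, -0.77 relative to the median gene there, with 7 higher and 7 lower), the apolipoprotein genes next to Apoe fell with it, Apoc1 fell by 8.26 ± 0.34 and Apoc2 fell by 8.76 ± 0.48. The transporter gene Abca9 and the ubiquitin ligase gene Mylip rose by 2.85 ± 0.17 and 3.07 ± 0.18.

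Glycolysis genes were mostly lower in transplanted cells. Of 27 glycolysis and hexose transport genes, 18 were lower and 7 higher (median -1.58, with 9 higher and 14 lower on the TPM scale), and 11 were at least 8-fold lower. Ldha, the lactate dehydrogenase of glycolytic cells, was at 4026, 3286 and 3872 CPM in culture and 186, 207, 296 and 189 CPM after transplantation (-4.10 ± 0.19, adjusted p = 8.94e-08), whereas Ldhb, the form of oxidative tissue, rose from 152, 141 and 142 CPM to 398, 454, 273 and 368 CPM (1.35 ± 0.17). Neither gene overlapped between the groups. Per length, Ldha exceeded Ldhb in culture at mean TPM values of 2867 and 145, and the order was reversed in the brain at 361 and 799. The glycolytic enzyme genes Gpi1, Pgk1 and Aldoc fell, with log2 fold changes of -4.58 ± 0.13, -4.65 ± 0.15 and -4.98 ± 0.31. Slc2a1, the common glucose transporter gene, fell by 2.15 ± 0.17 while Slc2a5, above, rose.

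Genes of the respiratory chain, the citrate cycle and the pentose phosphate pathway were mostly lower on counts. Of 31 nuclear-encoded respiratory chain genes 30 fell and none passed as higher (median -2.02, or -0.96 with the length trend removed); on the TPM scale 22 were called lower and 1 higher. Of 25 genes of the citrate cycle and pentose phosphate pathway 23 fell (median -1.19, with 5 higher and 8 lower on the TPM scale). Cox5a, a subunit gene of cytochrome oxidase, went from 186, 302 and 175 CPM to 22.6, 24.3, 22.1 and 21.2 CPM (-3.31 ± 0.20), and Ndufa2, of complex I, from 144, 211 and 96.6 to 22.9, 23.95, 23.5 and 20.5 CPM. Cultured replicate 2 was the highest library for both. Acly, which makes acetyl-CoA for lipid synthesis, fell, with 1024 to 2769 CPM in culture and 193 to 238 CPM after transplantation, and Idh1 fell by 4.03 ± 0.20. The antioxidant and iron list had 20 of 26 genes lower and 5 higher (median -2.66, and with 2 higher and 20 lower without the length trend). Ferritin light chain (Ftl1), the iron store, went from 21707, 26316 and 21309 to 1255, 1291, 1100.4 and 1252 CPM (-4.25 ± 0.14), thioredoxin (Txn1) fell by 4.37 ± 0.22 and haem oxygenase (Hmox1), which frees iron from haem, fell by 3.86 ± 0.15. Nfe2l2, the factor that switches on antioxidant genes, was itself higher, by 1.78 ± 0.13, as was the iron exporter of phagosomes Slc11a1, by 1.00 ± 0.16.

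**Figure D4:**
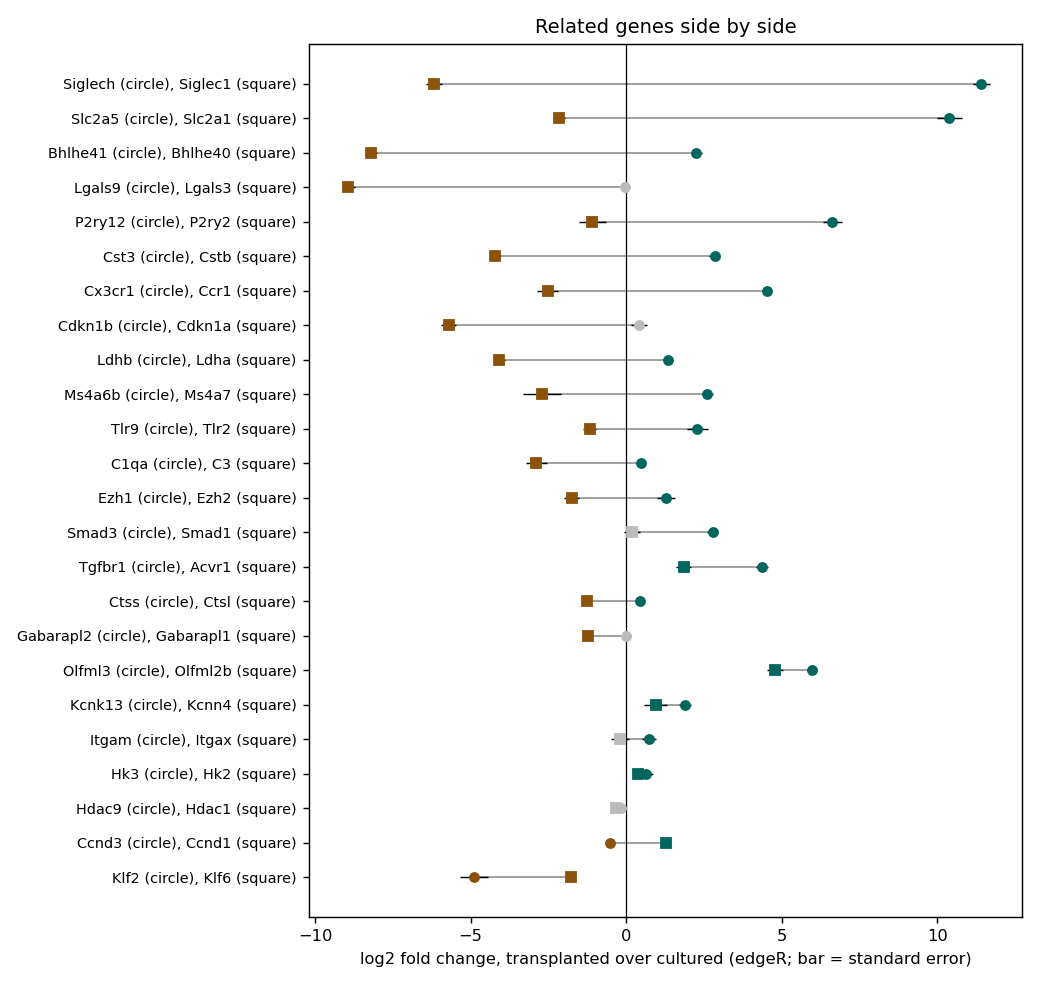
Log2 fold change with its SE for the genes of 24 related pairs (circle, first gene; square, second), green called higher, brown called lower, grey not called. In 13 pairs the genes were called in opposite directions, in 5 in the same direction, and in 6 not both were called.

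The plot of gene pairs sets related genes side by side. The 24 pairs were chosen by hand with earlier results known, so their counts are only a description: in 13 the members were called in opposite directions and in 5 in the same direction. Siglech rose as Siglec1 fell, Cst3 rose as the cytosolic inhibitor gene Cstb fell by 4.21 ± 0.16, and cathepsin S (Ctss) rose by 0.45 ± 0.11 while cathepsin L (Ctsl) had -1.25 ± 0.13, not called on the TPM scale. The clock-linked repressor genes Bhlhe40 and Bhlhe41 moved apart without overlap. Bhlhe40 fell from 1084, 926 and 1028 CPM to 4.25, 2.85, 3.07 and 3.83 CPM (-8.19 ± 0.19) and Bhlhe41 rose from 71.6, 95.6 and 70.1 CPM to 366, 376, 451 and 331 CPM (2.25 ± 0.17). Per length, Bhlhe40 led in culture at a mean of 377 against 14.6 TPM, and Bhlhe41 led in transplanted cells at 151 against 2.77 TPM. The chromatin enzyme genes Ezh1 and Ezh2, which methylate the same histone residue in resting and dividing cells, had log2 fold changes of 1.28 ± 0.28 and -1.75 ± 0.24.

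Genes of the ribosome and the proteasome were lower on counts. All 30 cytosolic ribosomal protein genes were lower in transplanted cells (median -3.10), and 16 of them by at least 8-fold. Rpl32 stood at 549, 758 and 432 CPM in culture and 40.4, 44.97, 45.2 and 43.2 CPM in the brain (-3.75 ± 0.19), and Rpl3 at 874, 958 and 806 against 178, 200.1, 188 and 189 CPM (-2.23 ± 0.12). The transplanted libraries lay close together for both, and cultured replicate 2 was the highest of its group. These genes are short, and many have pseudogene copies, so their counts are uncertain; with the length trend removed the median was -1.48 and 29 of 30 were called lower. Proteasome subunit genes were lower in 24 of 25 cases on counts (median -1.48), in 18 with the length trend removed and in 13 on the TPM scale, where 7 were called higher. Psmb6, a catalytic subunit, fell by 2.36 ± 0.16 on counts. Of 25 splicing and RNA-binding genes, 16 were higher and 4 lower (median 0.69, with 22 higher and 1 lower on the TPM scale, and with 9 higher and 5 lower without the length trend). The splicing kinase gene Clk1 rose, with 47.3 to 58.3 CPM in culture and 212 to 277 CPM after transplantation, and Srsf2 rose by 1.85 ± 0.19, while Hnrnpa1 fell by 2.54 ± 0.25.

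Cell division genes were lower in transplanted cells, though not to 0. Of 34 cell cycle genes, 31 fell and 1 rose (median -2.61, with 4 higher and 24 lower on the TPM scale), and of 25 replication genes 22 fell and none passed as higher (median -1.63, with 4 higher and 13 lower on the TPM scale). Mki67, the proliferation antigen Ki-67, was at 62.9, 67.6 and 63.5 CPM in culture and at 4.72, 5.48, 6.50 and 26.5 CPM in the brain (-2.60 ± 0.54, adjusted p = 0.00164). Transplanted replicate 4 stood apart at 26.5 CPM against 4.72 to 6.50 CPM in the other 3, and without it the log2 fold change was -3.55. Top2a, Birc5 and Cenpa, genes of mitosis, fell, with log2 fold changes of -2.54 ± 0.45, -3.84 ± 0.48 and -4.46 ± 0.39, or -3.20, -4.53 and -5.05 without that library. The summed level of the cell cycle list was 39.5% of the cultured mean in transplanted replicate 4 and 24.6 to 26.4% in the other 3, and without it 31 of 34 genes were called lower and 1 higher. Mcm2, a helicase subunit gene of the replication list, gave no such gap at 11.4, 11.8, 14.2 and 13.4 CPM in the 4 transplanted libraries against 43.7, 22.7 and 45.9 CPM in culture (-1.57 ± 0.23), a call that was lost on the TPM scale. Ccnd1, a cyclin of the growth-factor response, was the cell cycle gene that rose, with 25.8 to 33.1 CPM in culture and 63.7 to 82.7 CPM after transplantation, and Ccnd2 fell by 5.42 ± 0.41. Ccnd3 had -0.52 ± 0.15 on counts and 0.59 on the TPM scale, above 0 but under the median gene there, at 0.96. Its call on counts was lost without cultured replicate 1 or 3.

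Promoters of division genes are shown because most members of both lists fell and a different short element was frequent in each list. In the cell cycle list it was the cell cycle homology region (CHR, TTTGAA), bound by repressor and activator complexes of the division cycle. In the replication list it was the E2F site (TTTNGCGC). Each line gives the 100 bases before the RefSeq start on GRCm38.p6, 5′ to 3′ on the gene's strand, with matches on either strand in capitals.
Cdk1 (chr10:69352913-69353012, minus strand): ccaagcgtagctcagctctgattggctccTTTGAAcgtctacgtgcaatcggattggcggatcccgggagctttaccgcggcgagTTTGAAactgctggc
Ube2c (chr2:164769829-164769928, plus strand): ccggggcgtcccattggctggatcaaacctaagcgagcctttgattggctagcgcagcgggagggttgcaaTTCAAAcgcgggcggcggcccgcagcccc
Cdc20 (chr4:118437344-118437443, minus strand): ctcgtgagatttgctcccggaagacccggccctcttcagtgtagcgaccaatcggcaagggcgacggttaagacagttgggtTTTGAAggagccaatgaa
Kif11 (chr19:37376282-37376381, plus strand): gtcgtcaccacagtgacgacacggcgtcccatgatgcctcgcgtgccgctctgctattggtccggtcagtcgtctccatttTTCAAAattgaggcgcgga
Mcm6 (chr1:128359706-128359805, minus strand): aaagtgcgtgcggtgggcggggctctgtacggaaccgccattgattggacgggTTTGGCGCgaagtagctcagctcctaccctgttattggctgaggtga
The first 4 show the CHR letters and Mcm6, a helicase subunit gene, the E2F letters. These genes were chosen for print after their values and matches were seen. Cdk1, the kinase that starts mitosis, was at 51.8, 48.9 and 46.3 CPM in culture and 4.59, 4.62, 3.38 and 10.7 CPM after transplantation (-3.09 ± 0.34), and the ubiquitin-conjugating gene Ube2c at 26.6, 33.1 and 24.6 against 1.12, 1.90, 1.41 and 7.48 CPM (-3.26 ± 0.57, or -4.26 without transplanted replicate 4). Cdc20, which opens anaphase, was at 25.3, 28.01 and 28.7 against 4.72, 4.71, 4.52 and 22.3 CPM (-1.61 ± 0.54), or -2.57 without transplanted replicate 4. It was lower in each transplanted library, but its call was lost on the TPM scale and without cultured replicate 2 or transplanted replicate 1 or 3. The spindle motor gene Kif11 fell by 2.22 ± 0.42 and Mcm6 from 79.8, 55.9 and 74.2 to 20.97, 22.6, 21.2 and 18.9 CPM (-1.75 ± 0.15). CHR letters stood in 13 of 27 windows of the cell cycle list (48.1%), but in 8.7% of the replication list's windows. They stood in 17.9% of all windows, or 13.3% for genes not called. E2F letters stood in 34.8% of the 23 windows of the replication list, but in 3.7% of the cell cycle list's windows. They stood in 1.38% of all windows, or 2.41% for genes not called.

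**Figure D5:**
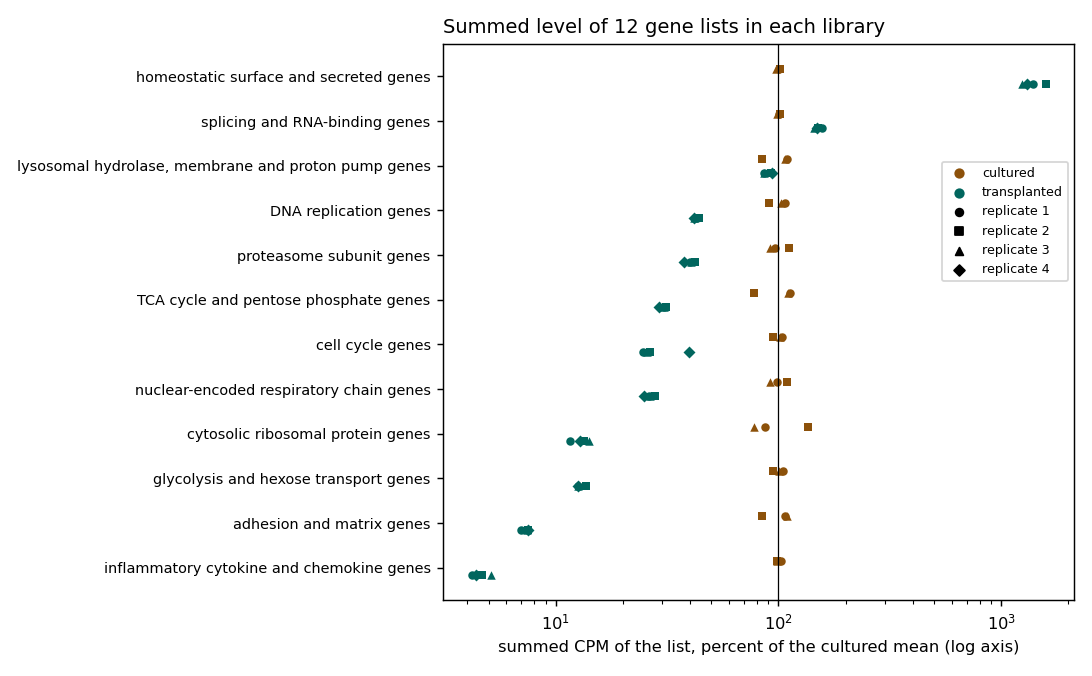
Summed CPM of 12 gene lists in each library as a percentage of the cultured mean, on a log axis (brown, cultured; green, transplanted; symbol, replicate). The homeostatic sum is more than 10 times the cultured mean in every transplanted library, the lysosomal sums overlap, and transplanted replicate 4 lies to the right of the other 3 for cell cycle genes.

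Brakes on division and chromatin regulator genes were called in both directions, against a background of 36.8% higher and 35.5% lower. Of 21 cyclin-dependent kinase inhibitor and quiescence genes, 5 were higher and 9 lower (median -0.18, but 0.91 on the TPM scale, -0.05 relative to the median gene there, with 12 higher and 7 lower); without cultured replicate 2, 8 were higher. Cdkn1a, the p21 inhibitor gene that damage and stress induce, fell from 727, 1147 and 677 CPM to 18.01, 14.3, 13.3 and 20.3 CPM (-5.70 ± 0.25), while Cdkn1b, the p27 gene of resting cells, did not pass the test at 0.42 ± 0.25, though it was called higher without cultured replicate 2, at 0.79. Txnip, which restrains glucose uptake, rose, with 90.1 to 104 CPM in culture and 556 to 606 CPM after transplantation. Klf4, a factor of monocyte differentiation, fell by 6.84 ± 0.37. Chromatin regulator genes gave 11 higher and 11 lower of 32 (median -0.11, but 0.89 on the TPM scale, -0.07 relative to the median gene there, with 21 higher and 6 lower, and with 7 higher and 18 lower without the length trend). Tet1, which oxidises methylated cytosine, rose (0 to 1.10 against 11.6 to 21.8 CPM, 5.22 ± 0.69, or 6.76 without cultured replicate 3), the deacetylase gene Hdac11 rose by 3.27 ± 0.30, and Uhrf1, which keeps methylation through replication, fell by 2.73 ± 0.25.

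Clock, steroid and stress genes were called in both directions, against a background of 36.8% higher and 35.5% lower. Of 16 clock genes, 6 were higher and 7 lower (median -0.01, but 0.84 on the TPM scale, -0.12 relative to the median gene there, with 8 higher and 2 lower, and 0.06 without the length trend); the activator gene Clock rose by 1.23 ± 0.12, the repressor gene Nr1d2 by 2.48 ± 0.35, and Nfil3 fell, with 132 to 209.5 CPM in culture and 7.07 to 10.5 CPM after transplantation. Glucocorticoid target genes gave 7 higher and 8 lower of 16 (median -0.80, but 0.31 on the TPM scale, -0.65 relative to the median gene there, with 7 higher and 5 lower). Tsc22d3 (GILZ), which damps inflammation, rose from 24.4, 26.5 and 28.2 CPM to 207, 116, 204 and 124 CPM and the chaperone gene Fkbp5 by 1.54 ± 0.23, highest in transplanted replicate 1, while the metallothionein gene Mt2 had a log2 fold change of -6.92 ± 0.45, or -7.56 without transplanted replicate 4. Of 24 amino acid stress and unfolded protein genes, 8 were higher and 10 lower (median -0.10, but 0.91 on the TPM scale, -0.05 relative to the median gene there, with 14 higher and 5 lower). The kinase-like inhibitor gene Trib3 and the asparagine synthetase gene Asns fell, with log2 fold changes of -4.58 ± 0.58 and -3.31 ± 0.55, the latter -4.13 without transplanted replicate 4, and Herpud1, which helps clear misfolded proteins, rose by 2.41 ± 0.16.

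Some abundant genes did not differ beyond their spread. Of 195 genes at 300 CPM or more in both groups, 136 were called, a share near the 72.3% of all genes tested. The smallest differences, besides Adgre1 and Fcgr1, were those of Lman2, a cargo receptor of the secretory path, at 0.02 ± 0.13; the galectin gene Lgals9 at -0.03 ± 0.14; the actin capping gene Capza2 at -0.03 ± 0.16; the myosin gene Myo1f at 0.03 ± 0.21; the proton pump accessory gene Atp6ap2 at -0.04 ± 0.15; and the retinal reductase gene Dhrs3 at -0.04 ± 0.15. On the TPM scale all of them were called higher, near the median of all genes there, and with the length trend removed Lgals9 had 0.43 and Lman2 -0.46. At the top of the libraries, Apoe, Lyz2, Ctsd, Trf, Arg1 and Actb led in culture, and Ctsd, Cst3, Csf1r and Lgmn were among those that led after transplantation. The iron carrier gene transferrin (Trf) went from 30766, 17312 and 29372 CPM to 2548, 2629, 2268 and 2414 CPM (-3.40 ± 0.20).

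Markers of other cells were low, with a few exceptions. Astrocyte genes summed to 38.01 to 77.7 CPM in culture and 135 to 256 CPM after transplantation, nearly all of the latter from the glutamate transporter gene Slc1a3, which was at 0.675, 0.0456 and 0.23 against 205, 249.6, 130.2 and 144 CPM (9.12 ± 0.52, or 10.30 without cultured replicate 1). Gfap and Aqp4, which define astrocytes, were at 0.184 to 0.548 and 0 to 0.0919 CPM in culture and 0.257 to 0.547 and 0.589 to 1.27 CPM after transplantation. Gfap did not pass the filter on low counts. Aqp4 was called higher, with 2 counts in culture and a ratio of 29.6 (95% exact interval 7.94 to 248.8). Of 5 astrocyte genes tested, 2 were higher and 2 lower, all of these by at least 8-fold (median 0.42). On the TPM scale 1 was higher and 2 lower (median -2.05, -3.01 relative to the median gene there). Without the length trend the median was -0.17. Neuron genes summed to 1.53 to 2.85 against 5.06 to 6.84 CPM, endothelial genes to 9.49 to 9.74 against 25.8 to 30.4 CPM, mostly from the receptor gene Kdr and the junction gene Pecam1, with the defining junction gene Cldn5 at 0 to 0.0878 CPM. Oligodendrocyte genes summed to 160.4 to 194 against 155 to 169.8 CPM, lymphocyte genes to 2.92 to 3.33 against 1.05 to 1.76 CPM, and erythroid genes to 0 to 0.225 against 0.182 to 0.408 CPM. Neutrophil genes summed to 115 to 198 against 895 to 1095 CPM, nearly all of the latter from the receptor gene Csf3r, which microglia also express. Of 5 neutrophil genes tested, however, 2 were higher and 3 lower, those 3 by at least 8-fold (median -7.58). Without the length trend 1 was higher and 3 lower. The granule genes Camp and Ltf were at 0 to 0.0456 and 0 to 0.0429 CPM after transplantation. Precursor genes of oligodendrocytes summed to 43.01 to 50.7 CPM in culture and 2.40 to 5.47 CPM after transplantation, and mural and fibroblast genes to 2.65 to 5.34 against 0.659 to 1.29 CPM. The part of such cells in the differences above was not tested.

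Promoter letters differed somewhat between the classes of genes. Windows were found for 578 of the 753 genes at least 8-fold higher, 671 of the 875 at least 8-fold lower and 2745 of the 3406 not called. The AP-1 letters TGANTCA, recognised by Fos and Jun factors, stood in 10.6% of windows of lower genes, 6.19% of higher genes and 4.62% of genes not called, against 7.81% of all windows. The PU.1 letters GAGGAAG stood in 18.7% of higher, 16.6% of lower and 12.7% of genes not called, against 13.6% of all. The GC box letters GGGCGG were rarer in higher (45.1%) and lower genes (53.4%) than in genes not called (63.1%). The SMAD letters GTCTAGAC were too rare to compare, at 0.213% of all windows. These shares are descriptions of letters on either strand, without a test, and some motifs overlap in sequence.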

How the data were processed

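RNA of 1 ng per sample was made into Smart-Seq libraries, per the labels' protocols. The authors deposited 1 table of 16894 genes with expected counts, TPM and 11 columns of FPKM that were not used here. GRCm38.p6, HISAT and Bowtie2 are named in the submitters' processing notes, without versions; the sources used here give no counting tool, filter or handling of strand. The expected counts are, per the file headers, the authors' estimates per gene, and were rounded to whole numbers here. The TPM values, the authors' own per the file headers, served as an alternative. By Entrez identifier, 16845 genes (99.7%) matched a RefSeq symbol and 49 did not.

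Transplanted and cultured libraries were compared in edgeR 4.0.16 (R 4.3.3), with filterByExpr, trimmed-mean scaling, the robust quasi-likelihood test and Benjamini-Hochberg adjustment over 12284 genes at 0.05. SE is the absolute log2 fold change over the square root of F. Counts of 3 stood for a limit of 0.106 to 0.112 CPM in a cultured and 0.152 to 0.160 CPM in a transplanted library. Alternatives used limma 3.58.1 and DESeq2 1.42.0; the scripts were tested on simulated data. Text genes were taken from the 12 highest and 12 lowest without overlap at 10 CPM or more, the first 2 and up to 3 largest called members a direction of each list, the 10 most abundant a group, the 8 most even at 300 CPM, and 24 pairs, 391 genes of which 233 are named and the others are not reported here; 22 more genes fall outside this rule and were chosen after their values were seen, 11 of them in the report (Camp, Cd163, Cdc20, Cdk1, Cxcl1, Cxcl2, Kif11, Ltf, Lyve1, Mcm6 and Ube2c). The comparison, the lists and the pairs were chosen with earlier results of these data known. Promoters and coordinates are from RefSeq, GRCm38.p6. Replicate numbers did not pair the groups.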

Additional observations from a re-analysis of the deposited data

Results flagged for a closer look

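In 16 of the 255 genes named here, 6 of which did not pass the filter on low counts and were not examined, 1 transplanted library lay apart from the other 3 by Dixon's test. Chance alone flags about 1 in 20 groups of 4, and 10 of these 16 were in replicate 4. Among the genes apart in replicate 4, 6 were cell division genes, all high there: Mki67 at 26.5 CPM, Cdc20 at 22.3 CPM, Cdk1 at 10.7 CPM, Kif11 at 8.03 CPM, Ube2c at 7.48 CPM and Cenpa at 6.61 CPM. Cdc20, Cdk1, Kif11 and Ube2c were named after their values were seen, so the counts of 16, 10 and 6 are only a description. Replicate 4 was also the high library for Lyz2 at 742 CPM, Tlr5 at 37.6 CPM, Entpd4 at 22.2 CPM and Rnase2a at 0.0456 CPM, the last a single count.

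Replicate 3 was the high library for Runx1 at 175 CPM, Hmox1 at 43.3 CPM and Spp1 at 23.1 CPM, and the low one for the myosin gene Myo1f at 288 CPM. Replicate 1 was high for Fkbp5 at 81.3 CPM. Replicate 2 had 0 CPM of Timd4, where each of the others had 1 count.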

How the results depend on the processing

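On TPM, 7813 genes were called higher and 1916 lower with a pseudocount of 1, and 7790 and 1901 with 0.1; of 6890 genes called on both scales with a pseudocount of 1, 720 were called in opposite directions. The count at least 8-fold higher was 1316 on TPM with a pseudocount of 0.1 and 425 with a stricter filter, which tests fewer genes, and that at least 8-fold lower was 287 and 458 on TPM. A test against a 2-fold difference, a lower bar than 8-fold, called 2280 genes higher and 2346 lower. The cause of the shift on TPM was not tested. With each library left out in turn, 4174 to 4850 genes were higher and 4094 to 4566 lower, and 727 to 861 and 844 to 931 past 8-fold. DESeq2, another scaling, no filter, the fit of 11 libraries and removal of the length trend kept these counts within 1.5 times. B2m, Fcer1g and Tyrobp turned to 0.399, 0.426 and 0.542 on the log2 scale without the length trend. Ccnd3 turned to 0.593 and 0.602 on TPM, under the medians of all genes there, 0.96 and 1.11. The cause was not tested.

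With the replicate number as a block, 4136 genes were higher and 4013 lower, against 4236 and 4150 in the same 6 libraries without it, a fit added after seeing the data; same-numbered libraries did not deviate together (r 0.019, 0.004 and 0.017), so the numbers were not taken to pair libraries.

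The 3 cultured and 4 transplanted libraries, all from 1 series, limit the precision, and depth limits genes near 0. Isolation by sorting and culture cannot be told apart from the difference between the groups. Genes with near copies and short genes carry added uncertainty.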

Other observations

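Further members of the lists, named after their values were seen, are given as values. Among homeostatic genes, Sparc, a matrix-binding glycoprotein gene, was at 2.97 to 4.29 CPM in culture and 2519.5 to 3389.7 CPM after transplantation, Gpr34, a receptor gene for lysophosphatidylserine, at 42.2 to 46.5 against 979 to 1644 CPM, and Selplg, the P-selectin ligand gene, at 454 to 607 against 4327 to 6092 CPM. Tgfbr2 and Itgav, a receptor of TGF-beta and an integrin subunit that helps release it, rose by 1.49 ± 0.18 and 1.67 ± 0.17. The chemokine genes Ccl3 and Ccl4 had log2 fold changes of -5.65 ± 0.16 and -4.57 ± 0.14, and Tnf of -2.51 ± 0.27. Thbs1, the matrix protein thrombospondin, was at 3675, 2013 and 3738 CPM in culture and 12.7, 16.5, 11.6 and 16.6 CPM after transplantation. The macrophage genes Spi1 and Irf8, which specify the lineage, did not pass the test, at -0.20 ± 0.33 and 0.19 ± 0.11, but were called higher on TPM values, at 1.06 and 1.29, near the median of all genes there.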
